A study of Rattus norvegicus with 12 samples.

Results

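Transcripts of 10 genes of eicosanoid metabolism were followed in the central nucleus of the amygdala (CeA) of rats exposed to ethanol vapor. The genes were taken by symbol from the table of 37209 genes, as listed lipoxygenases, cyclooxygenases and related enzymes: *Alox15*, *Alox12*, *Alox5*, *Alox5ap*, *Ptgs1*, *Ptgs2*, *Ptgds*, *Ptges*, *Hpgd* and *Ltc4s*. All 10 were present as rows of the table, and all 10 passed the filter on low counts, which kept 20944 genes. *Alox15* is in the list because its counts differed between the groups in these same rats, so its difference is described here without a test. The other 9 were listed by enzyme family and were tested.

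The rats were wild type male Sprague Dawley of 14 to 16 weeks. In the CIE group (chronic intermittent ethanol, 6 rats) the animals breathed ethanol vapor during 14 h of each day and air during the other 10 h, over 5 to 7 weeks, and tissue was taken at the end of the last vapor period. The Control group (6 rats) was kept in air for 24 h per day and sampled at the end of the last air period. Each rat gave 1 CeA tissue punch library of poly-A RNA, and the label numbers are kept here (CIE 1 to 6, Control 7 to 12).

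Eicosanoids are signaling lipids made from arachidonic acid after phospholipases release it from membranes. Cyclooxygenases (*Ptgs1*, *Ptgs2*) turn it into prostaglandin H, which synthases such as *Ptgds* and *Ptges* convert to individual prostaglandins, and *Hpgd* inactivates prostaglandins by oxidizing them. Lipoxygenases add oxygen to arachidonic acid at set positions, and *Alox5* with its partner *Alox5ap* opens the path to the leukotrienes, of which *Ltc4s* makes the cysteinyl branch. In brain these lipids are known for parts in inflammation, blood flow, fever and synaptic signaling.

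Total counts lay between 39082548 and 95647601 per rat. Levels are given as CPM, that is counts scaled to a common library total with TMM factors. Differences are log2 fold changes of CIE against Control with their standard error (SE), from the two-sided quasi-likelihood F test of edgeR. The FDR is adjusted by Benjamini-Hochberg over all genes tested. Of all genes tested, 8.31% had a nominal p below 0.05 and 0.363% an FDR below 0.05, and the median log2 fold change was 0.00. The CeA neuron transcripts *Penk* (267 to 1657 CPM) and *Prkcd* (22.7 to 46.3 CPM) were present in every rat. Markers of cortical glutamatergic neurons, in contrast, stood apart in 4 rats. Their 6 genes summed to 411 CPM in CIE 1, 263 in CIE 4, 212 in CIE 2 and 154 in Control 10, and to at most 58.7 CPM in the other 8 rats. Results that rest on these 4 rats are given with and without them.

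*Alox15* encodes a lipoxygenase that oxygenates arachidonic acid and other polyunsaturated fatty acids, also within membranes, and it is known from reticulocytes, eosinophils and macrophages. Its transcript was lower in CIE rats than in Control rats by 2.24 on the log2 scale. The level was 1.86, 1.13, 1.13, 2.47, 2.71 and 1.97 CPM in CIE 1 to 6, and 5.40, 8.56, 18.6, 10.4, 4.52 and 5.79 CPM in Control 7 to 12. Every CIE rat was thus below every Control rat, which was the case, in that direction, for 0.554% of all genes tested. As *Alox15* was chosen on this contrast, nothing is read from that share. The means were 1.88 ± 0.658 CPM in CIE rats and 8.87 ± 5.23 CPM in Control rats (SD, n = 6 each), a ratio of means of 4.72.

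The lowest Control rat (Control 11, 175 counts) was also the library of lowest depth, and the raw *Alox15* counts of 68 to 188 in CIE rats and 175 to 1289 in Control rats overlapped. The level varied more among Control rats than among CIE rats, with a coefficient of variation of 58.9% against 35.0%. Control 9 was highest, and without it the log2 fold change was -1.88, the smallest of the 20 alternative settings. Without CIE 5 it was -2.37, the largest. Leaving out the 4 rats of high cortical markers gave -2.13. As every CIE rat lay below every Control rat, leaving out rats could change the size of the difference but not its direction.

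**Figure D1:**
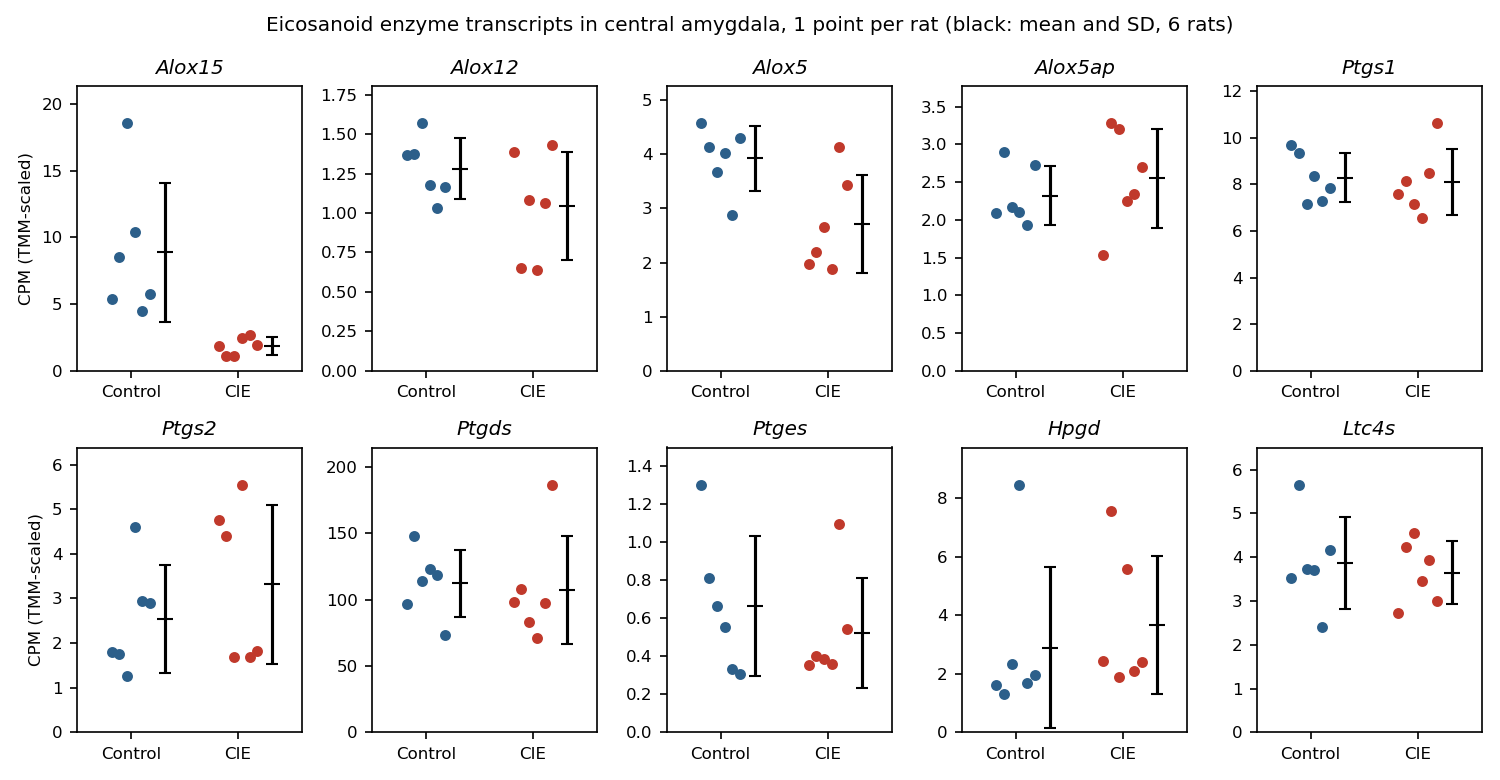
Levels of the 10 transcripts in CPM (y axis, linear, from 0) in each Control (blue) and CIE (red) rat, with mean and SD in black. For *Alox15* the CIE rats lie at 1.13 to 2.71 CPM and the Control rats at 4.52 to 18.6 CPM, while for each of the other 9 genes the groups overlap.

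Marker transcripts of several other tissue components were also mostly lower in CIE rats. Of all 20944 genes tested, 10408 were lower in CIE rats, 4.31% were lower at nominal p, and 0.363% passed 5% FDR in either direction. The marker lists were chosen with earlier results of these data known. Of 12 erythroid marker transcripts tested, 10 were lower in CIE rats, 7 of them at nominal p and 5 at 5% FDR, among them the hemoglobin genes *Hba1*, *Hba2*, *Hbb* and *Hbb-b1* and the red cell anion exchanger *Slc4a1*, while *Klf1* was higher at nominal p. The erythroid markers in the table summed to 130 to 407 CPM in CIE rats and 520 to 954 CPM in Control rats, without overlap, and none was at 0 in every rat. The hemoglobin genes are near-identical copies, so their single values are uncertain. All 10 meningeal fibroblast transcripts were lower in CIE rats, 6 at nominal p and 3 at 5% FDR (*Col1a1*, *Col3a1* and *Igf2*). The differences were uneven, and that of *Dcn* was only -0.01 on the log2 scale (edgeR FDR 0.987). The sums were 49.6 to 103 CPM against 112 to 174 CPM, with no marker at 0. Most of each sum was *Igf2*, *Col1a1* and *Col3a1*, with means of 24.1, 12.2 and 8.90 CPM in CIE rats and 48.8, 25.1 and 18.8 CPM in Control rats. All 8 endothelial transcripts tested were lower too, 5 of them at nominal p and 1 at 5% FDR (*Kdr*, a receptor of vascular endothelial growth factor), with overlapping sums of 189 to 244 and 214 to 268 CPM and none at 0. All 10 myelinating oligodendrocyte transcripts were lower, 9 at nominal p and 0 at 5% FDR by edgeR, with overlapping sums of 5718 to 13866 and 8759 to 16399 CPM and none at 0. Control 9 had the highest *Alox15* level and also the highest erythroid and meningeal sums. The highest endothelial sum was that of Control 10 and the highest oligodendrocyte sum that of Control 8.

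Set against the erythroid sum, *Alox15* was 4.98 to 16.9 CPM per 1000 CPM of markers in CIE rats and 8.42 to 19.5 in Control rats, and the ranges overlapped. Per 1000 CPM of the meningeal sum it was 15.4 to 39.1 and 38.1 to 107, and Control 11 lay below CIE 4. Per 1000 CPM of the oligodendrocyte sum it was 0.133 to 0.369 and 0.350 to 1.37, again with overlap. Per 1000 CPM of the endothelial sum it was 5.41 to 14.3 in CIE rats and 17.97 to 72.8 in Control rats, without overlap. Ratios to the platelet, leukocyte, microglial, astrocyte, general neuron and CeA neuron marker sums did not overlap between the groups either. Those to the choroid plexus and cortical marker sums did overlap. These ratios were chosen after the values were seen. The part of red cells, meninges, vessels or oligodendrocytes in the *Alox15* difference was not tested, and in bulk tissue fewer cells of a type cannot be told apart from less RNA per cell.

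The summed markers of other blood cells and of microglia overlapped between the groups. Of 6 platelet transcripts tested, 0 passed nominal p by edgeR and *Ppbp* and *Gp1bb* had no counts in any rat, with sums of 6.23 to 9.35 CPM in CIE rats and 5.96 to 11.4 CPM in Control rats. Of 13 leukocyte transcripts in the table only 3 passed the filter. *Il2rg*, the shared cytokine receptor gamma chain, was lower in CIE rats at 0.474 against 1.37 CPM (FDR 0.0297), and the neutrophil transcript *Elane* was at 0. The leukocyte sums of 7.29 to 10.5 and 8.79 to 11.03 CPM overlapped. Most of each sum was *Siglec5*, with means of 6.62 CPM in CIE rats and 7.67 CPM in Control rats. The overlap therefore says little about the other leukocyte transcripts. Of 11 microglial transcripts tested 1 passed nominal p, and their sums of 372 to 474 and 408 to 468 CPM overlapped.

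**Figure D2:**
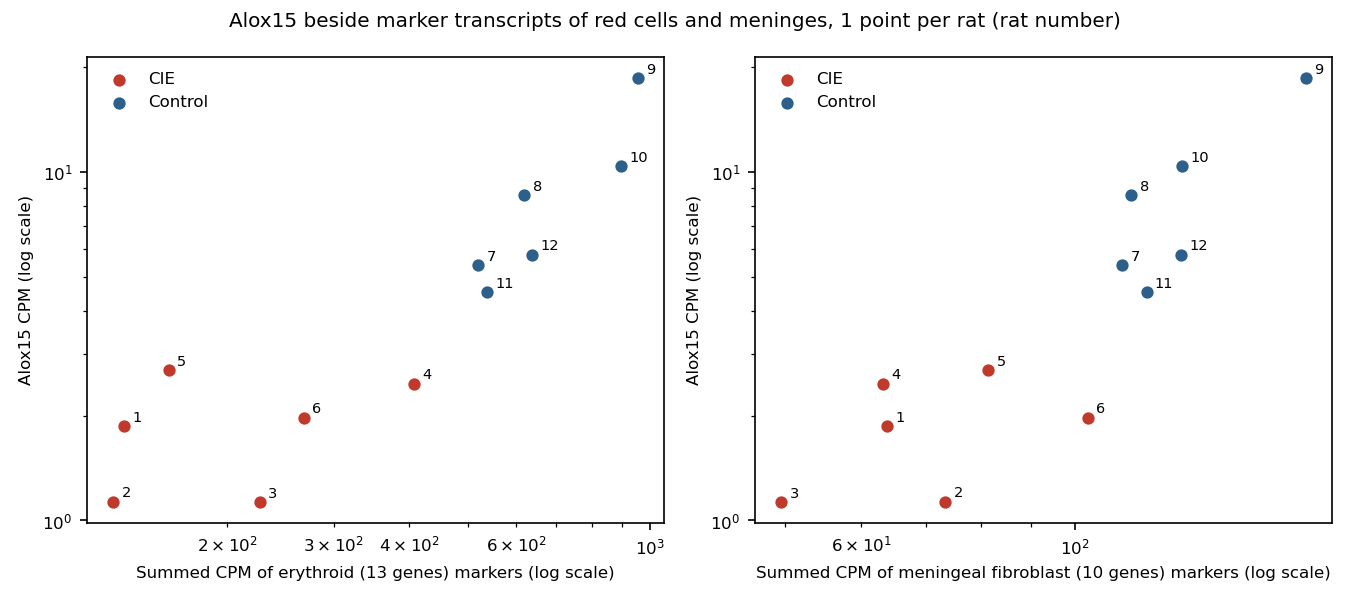
*Alox15* level in CPM (y axis, log scale) against the summed CPM of 13 erythroid (left) and 10 meningeal fibroblast (right) marker transcripts (x axis, log scale), 1 numbered point per rat. The groups are separate on all 3 measures, and Control 9 has the highest value of each.

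Among all 16891 genes with a mean of at least 1 CPM, those whose log2 CPM followed *Alox15* most closely after removal of the group means were *Gsr*, the reductase that regenerates glutathione (r = 0.85), the RNA helicase gene *Ddx59* (0.81), *RGD1559667* (0.81), the lipoprotein receptor gene *Lsr* (0.80) and *LOC102551659* (0.80). These are the highest of many correlations over the same 12 rats and carry no test. The levels of each of these 5 genes overlapped between the groups. *Gsr*, for one, lay at 36.3 to 44.8 CPM in CIE rats and 37.2 to 47.5 CPM in Control rats.

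The remaining lipoxygenases differed less. *Alox12*, the platelet-type lipoxygenase, had 0.640, 1.07 and 1.43 CPM as lowest, median and highest value in CIE rats and 1.03, 1.27 and 1.57 CPM in Control rats. The groups overlapped, and the log2 fold change of -0.30 (SE 0.23) did not pass (edgeR FDR 0.795). Of 4 lipoxygenase genes in the table outside the 10, *Aloxe3*, a hydroperoxide isomerase known from skin, alone had enough counts to test, with a log2 fold change of 0.13 (SE 0.27, edgeR FDR 0.934). RefSeq lists the symbol Alox12 also as a synonym of *Alox15*, but the table holds a row for each. How reads shared by related lipoxygenases were counted is not given in the sources used here.

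*Alox5*, which catalyzes the first steps of leukotriene synthesis, was the 1 of the 9 tested enzymes that passed nominal p, against 8.31% of all genes tested. It was lower in CIE rats, as 4.31% of all genes were at that threshold. Its levels were 1.97, 2.20, 2.66, 1.89, 4.13 and 3.43 CPM in CIE 1 to 6 and 4.57, 4.13, 3.67, 4.03, 2.87 and 4.29 CPM in Control 7 to 12. CIE 5 and CIE 6 lay within the Control range, and the other 4 CIE rats below it. The log2 fold change was -0.53 (SE 0.20), with an edgeR FDR of 0.462. Without the 4 rats of high cortical markers, which include the 3 lowest CIE rats, *Alox5* no longer passed nominal p and the log2 fold change was -0.19 (edgeR FDR 0.999).

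The other leukotriene genes did not pass. *Alox5ap*, the membrane protein that presents arachidonic acid to *Alox5*, ranged from 1.54 to 3.28 CPM (median 2.52) in CIE rats and from 1.94 to 2.90 CPM (median 2.14) in Control rats, with a log2 fold change of 0.13 (SE 0.19, edgeR FDR 0.900). *Ltc4s*, which joins glutathione to leukotriene A, ranged from 2.72 to 4.54 CPM (median 3.70) and from 2.40 to 5.66 CPM (median 3.72), with a log2 fold change of -0.09 (SE 0.19, edgeR FDR 0.936). For both genes the range of one group lay largely within that of the other.

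Of the cyclooxygenases, *Ptgs1* had the steadiest level of the 10 genes, at 6.58 to 10.6 CPM (median 7.86) in CIE rats and 7.17 to 9.70 CPM (median 8.10) in Control rats. Its log2 fold change was -0.03 (SE 0.12, edgeR FDR 0.964). The highest level over all 12 rats was 1.62 times the lowest. For *Alox15* this was 16.4 times, which includes the group difference on which that gene was chosen. Within groups it was 2.40 times in CIE and 4.10 times in Control rats for *Alox15*, and 3.98 and 6.45 times for *Hpgd*.

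*Ptgs2*, the inducible cyclooxygenase that forebrain excitatory neurons also express, varied widely within both groups. It was at 4.77, 4.40, 1.68, 5.55, 1.70 and 1.81 CPM in CIE 1 to 6 and at 1.79, 1.75, 1.27, 4.60, 2.95 and 2.90 CPM in Control 7 to 12. CIE 4, CIE 1, Control 10 and CIE 2 were highest, and these were the 4 rats with the highest cortical marker sums. Control 11 and Control 12 lay between them and the rest, with cortical marker sums of 12.9 and 58.7 CPM. The log2 fold change of 0.39 (SE 0.38, edgeR FDR 0.844) did not pass. Without those 4 rats it was -0.28 (edgeR FDR 0.999), with 3 CIE and 5 Control rats left. As the 4 rats had the highest *Ptgs2* levels and 3 of them were CIE rats, a fall was fixed in advance, and nothing is read from it. All 6 cortical markers were higher in CIE rats, 2 of them at nominal p, against 8.31% of all genes tested in either direction. Their sums were 9.95 to 411 CPM in CIE rats and 11.2 to 154 CPM in Control rats. The part of the cortical markers in the *Ptgs2* levels was not tested beyond this.

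*Hpgd*, the dehydrogenase that inactivates prostaglandins, was also set apart in a few rats. Its level was 8.46 CPM in Control 10, 7.56 in CIE 2 and 5.59 in CIE 4, and between 1.31 and 2.45 CPM in the other 9 rats. The groups overlapped, and the log2 fold change was 0.34 (SE 0.49, edgeR FDR 0.902). Without Control 10 it was 1.04 and passed nominal p (edgeR FDR 0.304), and without CIE 2 it was 0.0013. Without the 4 rats of high cortical markers, which include these 3, it was 0.28 (edgeR FDR 0.999). The same 3 rats had the highest sums of the 11 CeA neuron markers, at 5350, 4653 and 3447 CPM against at most 2791 CPM in the rest. Of these markers, *Penk* was also highest in the 3 rats, but *Prkcd* was not. *Prkcd* was at 34.1 CPM in Control 10, 28.0 in CIE 2 and 39.6 in CIE 4, and highest in Control 9 at 46.3 CPM. The part of the sampled region in the *Hpgd* levels was not tested.

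**Figure D3:**
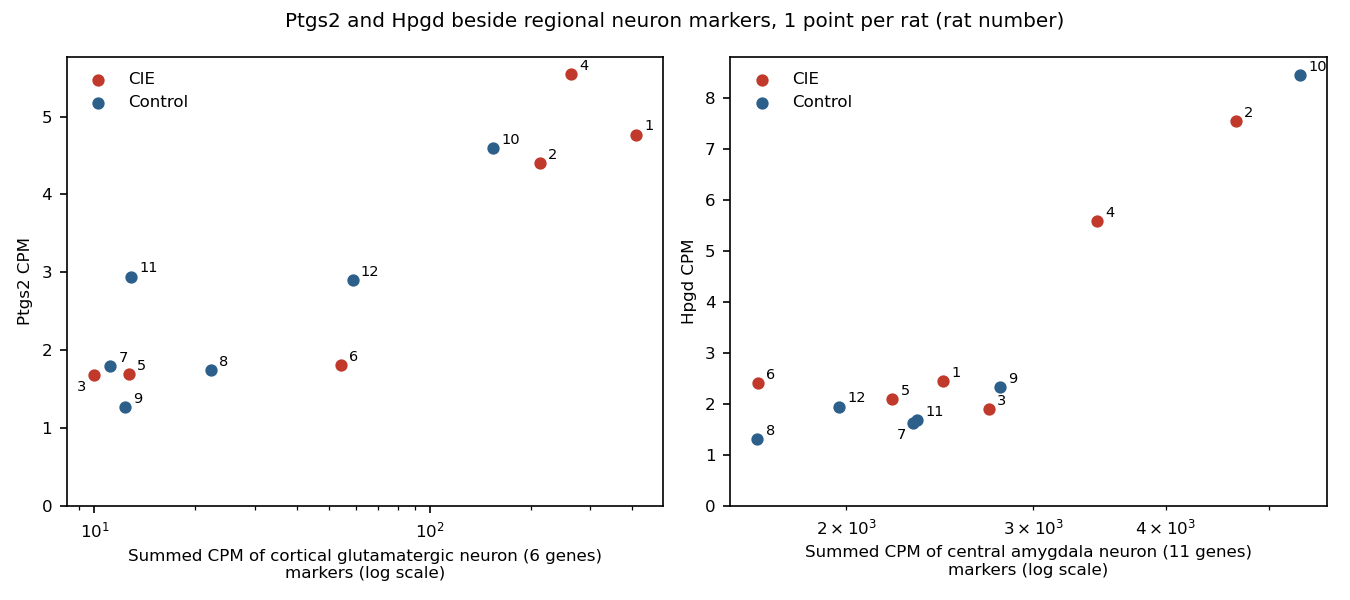
*Ptgs2* level in CPM against the summed CPM of 6 cortical glutamatergic neuron markers (left) and *Hpgd* level in CPM against that of 11 CeA neuron markers (right), with x axes on a log scale and 1 numbered point per rat. CIE 1, 2 and 4 and Control 10 are highest for *Ptgs2*, and Control 10, CIE 2 and CIE 4 for *Hpgd*, while the rest of both groups is mixed.

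The 250 bases upstream of the *Ptgs2* and *Hpgd* transcription starts are shown because these transcripts were high in overlapping sets of rats. They are RefSeq sequences of the GRCr8 assembly, chr13:64713813-64714062 on the plus strand for *Ptgs2* and chr16:39034832-39035081 on the minus strand for *Hpgd*. Both are written 5′ to 3′ in the direction of the gene with the last base next to the start, and capitals mark matches to the searched motifs.
Ptgs2: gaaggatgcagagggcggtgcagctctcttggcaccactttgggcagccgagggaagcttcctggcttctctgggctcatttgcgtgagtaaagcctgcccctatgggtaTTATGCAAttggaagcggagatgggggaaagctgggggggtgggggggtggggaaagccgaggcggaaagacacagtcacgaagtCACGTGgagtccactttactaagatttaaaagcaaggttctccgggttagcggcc
Hpgd: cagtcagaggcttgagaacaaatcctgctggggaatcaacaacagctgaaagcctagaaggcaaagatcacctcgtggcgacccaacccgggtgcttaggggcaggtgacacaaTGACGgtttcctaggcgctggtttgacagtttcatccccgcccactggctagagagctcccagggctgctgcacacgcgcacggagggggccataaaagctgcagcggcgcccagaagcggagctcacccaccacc
On both strands 4 motifs were searched, the TATA box (TATAAA), the core of the cyclic AMP response element (TGACG), the E-box (CACGTG) and the C/EBP motif (TTNNGCAA). The *Ptgs2* window held the E-box, which begins 55 bases before the start and reads the same on both strands, and a C/EBP match 140 bases before it. The *Hpgd* window held the TGACG core 136 bases before the start. None of the 4 motifs matched in both windows. Of 33469 promoter windows of this length, 5.59% held the E-box, 9.22% the C/EBP motif, 18.2% the TGACG core and 12.9% the TATA box. RefSeq promoter entries were matched for 8 of the 10 genes.

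The prostaglandin synthases showed no difference past the spread between rats. *Ptgds*, the brain prostaglandin D synthase of meninges, choroid plexus and oligodendrocytes, ranged from 71.2 to 186 CPM (median 97.6) in CIE rats and from 73.5 to 147 CPM (median 116) in Control rats, with a log2 fold change of -0.06 (SE 0.21, edgeR FDR 0.961). CIE 6 alone was above all Control rats. *Ptges*, the inducible prostaglandin E synthase, was scarce at 13 to 98 counts per rat. It ranged from 0.354 to 1.09 CPM (median 0.393) in CIE rats and from 0.308 to 1.30 CPM (median 0.609) in Control rats, with a log2 fold change of -0.35 (SE 0.40, edgeR FDR 0.868). The meningeal and oligodendrocyte transcripts given above were lower in CIE rats, while *Ptgds* did not pass the test.

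Over the 9 tested enzymes, 6 had a negative and 3 a positive log2 fold change, with a median of -0.06. None passed 5% FDR in edgeR, DESeq2 or limma-voom, where 0.363% of all genes did so in edgeR, 1.41% in DESeq2 and 1.12% in limma-voom. *Alox5* alone had a nominal p below 0.05 in edgeR and in DESeq2, where 7.48% of all genes did. In limma-voom with sample quality weights, *Alox12*, *Alox5*, *Ptgs2* and *Hpgd* had a nominal p below 0.05, as did 17.2% of all genes in that fit.

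Of 84 further symbols of the pathway, listed by function, 81 were rows of the table and 67 had enough counts to test. Of these 67 genes, 9 (13.4%) differed at nominal p, 3 lower and 6 higher in CIE rats, against 8.31% of all genes. None passed 5% FDR in edgeR, while DESeq2 called 2 (*Pla2g3* and *Cyp2j10*) and limma-voom 1 (*Pla2g3*). In all 29 were lower and 38 higher, and the median log2 fold change was 0.07.

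The 9 genes lay in 2 of the 7 role classes. Among 15 genes that release or re-esterify arachidonic acid, the secreted phospholipase *Pla2g3* had 0.665, 1.20 and 3.18 CPM as lowest, median and highest value in CIE rats and 0.207, 0.415 and 0.697 CPM in Control rats. The ranges overlapped slightly, and the log2 fold change was 1.67 (SE 0.38, edgeR FDR 0.112, DESeq2 FDR 0.00204). Without CIE 6, the highest rat, it was 1.26. *Pla2g4e*, a cytosolic phospholipase of the same superfamily, was higher at nominal p with a log2 fold change of 0.24 (SE 0.09, edgeR FDR 0.427). *Lpcat3*, which returns arachidonic acid to phospholipids, was lower at nominal p with -0.12 (SE 0.05, edgeR FDR 0.594). *Mgll*, the monoacylglycerol lipase that supplies arachidonic acid in brain, was the most counted gene of this class and did not pass, with 0.15 (SE 0.17, edgeR FDR 0.874).

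The other class was that of cytochrome P450 enzymes and epoxide hydrolases, in which 6 of 18 genes passed nominal p, against 8.31% of all genes tested. The class is described because of these calls, so nothing is read from their number. *Cyp2j10*, of the arachidonic acid epoxygenase family, ranged from 3.39 to 10.9 CPM (median 4.91) in CIE rats and from 5.60 to 17.6 CPM (median 12.9) in Control rats. It was lower at nominal p by 1.06 on the log2 scale (SE 0.29, edgeR FDR 0.211, DESeq2 FDR 0.0183), with overlap. *Cyp2u1*, a fatty acid hydroxylase of brain, was lower at nominal p as well, at 14.3 to 19.8 CPM against 18.5 to 21.4 CPM with a log2 fold change of -0.24 (SE 0.08, edgeR FDR 0.368).

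Many genes of the Cyp4 family hydroxylate the far end of fatty acids and leukotrienes. Of 9 tested, 4 were higher and 0 lower in CIE rats at nominal p by edgeR, 5 did not pass, and 0 passed 5% FDR. Of all genes tested, 8.31% passed nominal p in either direction. *Cyp4a8* had a log2 fold change of 1.57 (SE 0.48, edgeR FDR 0.296) from only 2 to 61 counts per rat, *Cyp4f4* 0.62 (SE 0.19, edgeR FDR 0.303), *Cyp4f1* 0.38 (SE 0.15, edgeR FDR 0.478) and *Cyp4x1*, the most counted of the class, 0.22 (SE 0.10, edgeR FDR 0.568), all 4 at nominal p. Reads of the near-identical Cyp4f, Cyp4a and Cyp2j genes may have been split or dropped in counting, so these values are uncertain.

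In the other 5 classes 0 genes passed nominal p by edgeR. Their most counted genes were *Aloxe3*, the cytosolic prostaglandin E synthase and chaperone partner *Ptges3* (log2 fold change -0.08, SE 0.07, edgeR FDR 0.809), the prostaglandin reductase *Ptgr2* (-0.04, SE 0.07, edgeR FDR 0.913), the lipid hydroperoxide peroxidase *Gpx4* (-0.09, SE 0.08, edgeR FDR 0.840) and the prostaglandin E receptor *Ptger1* (-0.07, SE 0.10, edgeR FDR 0.908). Of 13 receptors tested, 6 were lower and 7 higher. *Alox12e*, *Pla2g2a* and *Abcc1* had no counts in any rat.

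**Figure D4:**
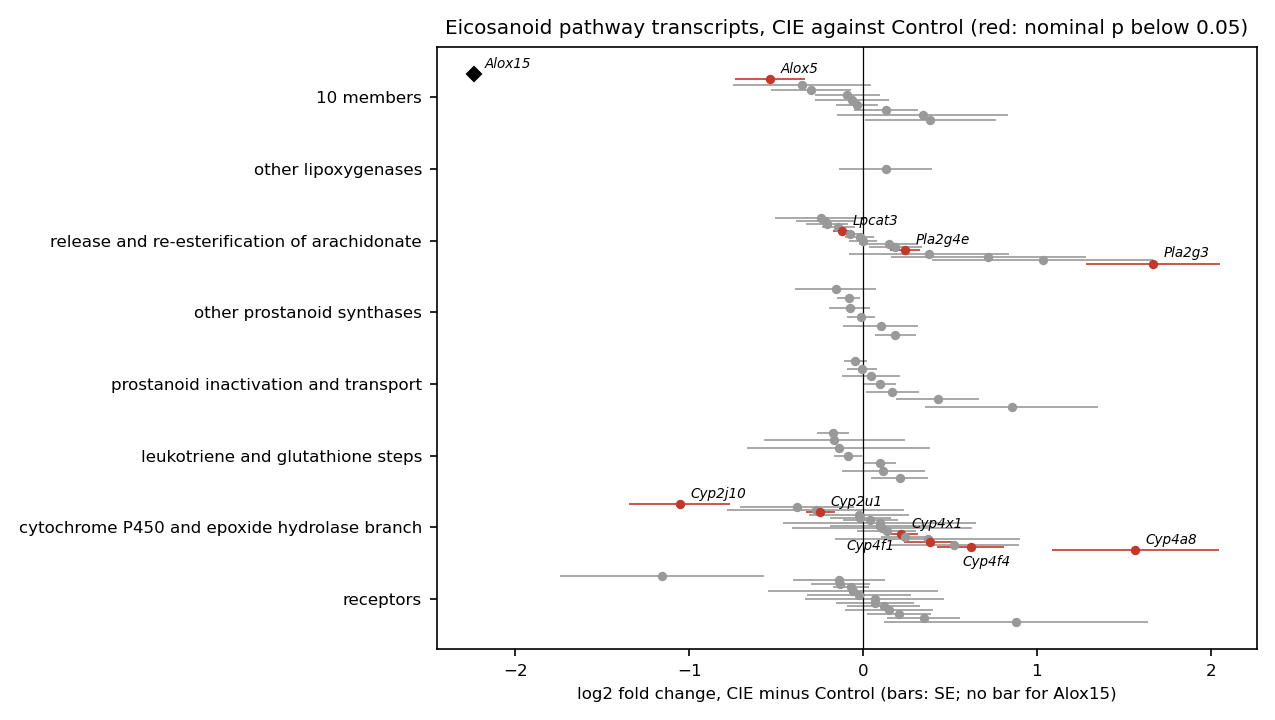
Log2 fold change of CIE against Control (x axis) with SE as bars for the 10 listed genes and 67 pathway genes in 7 role classes (y axis), with nominal p below 0.05 in red. *Alox15* at -2.24 (diamond, no bar), which was chosen on this contrast, lies beyond all other points. These range on both sides of 0, and the red points fall on *Alox5* and 9 genes of 2 classes.

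Whether the 10 transcripts varied together from rat to rat was examined apart from the treatment, with the group means removed from log2 CPM. There were 45 pairs, with 100000 permutations within groups for each and Benjamini-Hochberg adjustment over the 45. Of these, 25 correlations were positive, 6 passed p below 0.05 and 1 passed after adjustment. *Alox5ap* and *Ltc4s*, both membrane proteins of the leukotriene path, rose and fell together (r = 0.76, permutation p = 0.00107, adjusted 0.0481, Spearman's rho = 0.85, adjusted 0.0468). Without CIE 1 and CIE 2, the rats farthest from the median, r was 0.74 (permutation p = 0.0138, adjusted 0.622), so r was of like size while the adjusted call was lost with 10 rats.

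*Alox5* and *Ptgs1* correlated by rank (rho = 0.82, permutation p = 0.00208, adjusted 0.0468), with r = 0.68 (permutation p = 0.025, adjusted 0.281) and r = 0.73 without CIE 4 and CIE 5. *Alox5* and *Ptges* had r = 0.70 (permutation p = 0.00473, adjusted 0.106), which was 0.52 without the same rats. *Ptgs2* and *Hpgd* had r = 0.69 (permutation p = 0.0213, adjusted 0.281), and 0.47 without CIE 4 and Control 10. In the 8 rats left without the 4 of high cortical markers, r was -0.15 (permutation p = 0.831) and rho 0.14. Those 4 rats had the highest *Ptgs2* levels and include the rats highest for *Hpgd*. A weaker correlation thus followed from the narrower range, and nothing is read from it. *Alox15* had no correlation past nominal p with any of the 9 others, with r from -0.27 (*Alox5ap*) to 0.33 (*Ptges*).

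**Figure D5:**
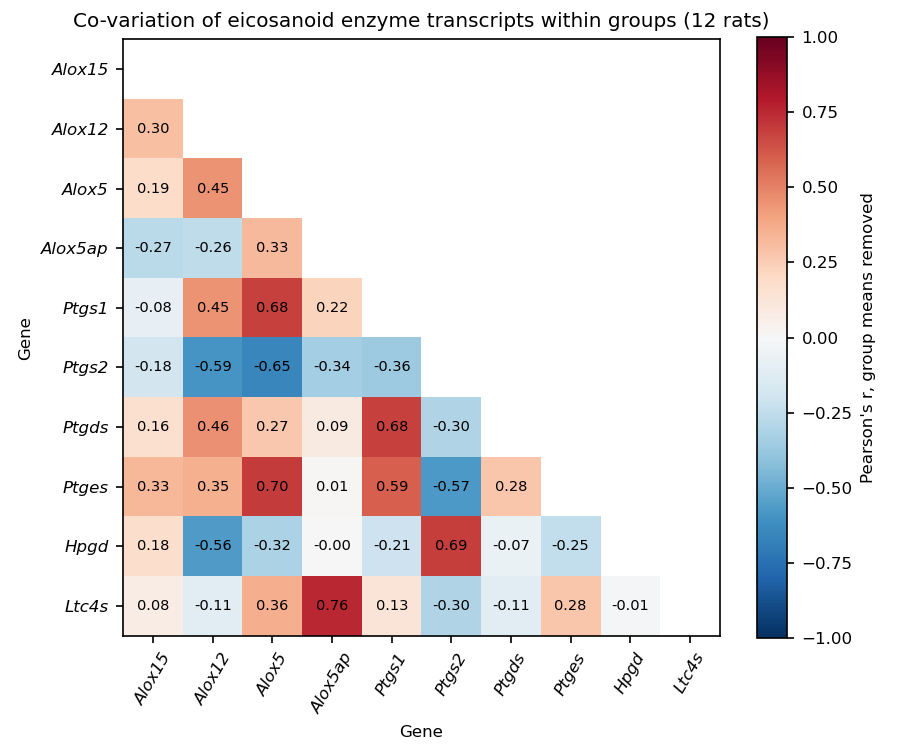
Pearson's r between log2 CPM of each pair of the 10 transcripts over 12 rats after removal of the group means, with the value printed in each cell and the color scale from -1 to 1. *Alox5ap* and *Ltc4s* have the highest value at 0.76, and *Ptgs2* is negative with each gene except *Hpgd*.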

How the data were processed

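CeA punches of 12 rats, 6 CIE and 6 Control, were profiled by RNA-Seq of poly-A RNA, each as a library of its own. Reads were mapped with BWA to the Rnor_6.0 assembly and summed over genes with HTSeq by the authors, and the deposited values are raw counts without a filter. The annotation and the strand and overlap settings of counting are not given in the sources used here, so overlapping and antisense genes cannot be told apart. Of 37209 genes, 7757 had 0 counts in every rat. The submitters' processing notes also name DESeq2 1.26. Groups follow the treatment label. Rats 1 to 6 are CIE and 7 to 12 Control, so an effect of that order cannot be told apart from CIE.

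Counts were compared in R 4.3.3 with edgeR 4.0.16 (TMM, filterByExpr defaults, quasi-likelihood F test, no covariates), where SE is the log2 fold change over the root of F. The script was tested on simulated data. Log2 CPM used a prior count of 2. Alternatives were DESeq2 1.42.0, limma 3.58.1 (voom with sample quality weights), 1 surrogate variable (sva 3.50.0), a filter of at least 10 counts in all rats, no filter, scaling by library size only, DESeq2 size factors in edgeR, and leaving out each rat. Leaving out the 4 rats of high cortical markers, also in the correlation of *Ptgs2* and *Hpgd*, and the ratios of *Alox15* to marker sums were added after the values were seen. Figures and permutations used matplotlib 3.10.9, pandas 2.3.3, scipy 1.17.1 and numpy 2.4.6 in Python 3.11.15.

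The members, pathway and marker lists and tests were chosen with earlier results of these data known. Genes named are all members, pathway genes with a nominal p below 0.05, the most counted pathway gene of each role class, and the 5 genes most correlated with *Alox15*. Markers were named beside the results they touch, after their values were seen. Of the 84 pathway symbols, *Alox8*, *Prxl2b* and *Ptgr3* were not rows of the table. The last 2 are newer symbols of *Fam213b* and *Zadh2*, which were. Coordinates in the RefSeq tables (GRCr8) differ from the build of the counts and were used for the promoter windows only. The edgeR p-values weigh a group difference against the variation between these rats, and those of pairs compare a correlation with permutations within groups.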

Additional observations from a re-analysis of the deposited data

Results flagged for a closer look

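In groups of 6 rats, a rat was noted where its gap to the nearest other took up more of the range than Dixon's 95% limit. Of 50 groups of values checked, 6 had such a rat, and chance alone gives about 1 in 20. All 6 were the highest of their group. CIE 6 stood out for *Ptgds* (186 CPM, the others 71.2 to 108), *Pla2g3* (3.18 CPM, the others 0.665 to 1.27) and *Cyp4f4* (5.32 CPM, the others 3.03 to 3.65). Control 10 stood out for *Hpgd* (8.46 CPM, the others 1.31 to 2.33) and *Mgll* (216 CPM, the others 124 to 153). CIE 5 stood out for *Ptges* (1.09 CPM, the others 0.354 to 0.543).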

How the results depend on the processing

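The *Alox15* log2 fold change ranged from -2.37 to -1.88 over the 20 alternatives. *Alox15* was chosen on this contrast, and leaving out rats could not change the direction, so the range describes size only. For the 9 other enzymes the count at 5% FDR stayed at 0, and the count at nominal p was 4 under limma-voom, 0 without the 4 rats of high cortical markers, and 1 to 2 when each rat was left out (2 without Control 10). For the 67 pathway genes, 2 passed 5% FDR under DESeq2, 1 under limma-voom and 0 to 1 with a rat left out (1 without CIE 6), and 18 passed nominal p under limma-voom, where 17.2% of all genes did. Over all genes, 76 passed 5% FDR in edgeR, 294 in DESeq2, 234 in limma-voom, 15 without the 4 rats and 34 (without Control 9) to 154 (without CIE 6) with a rat left out. Of the 45 pairs, 0 passed after adjustment without the 2 rats farthest from the median. The causes were not tested.

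Of 478 values for 24 named genes, 458 kept their direction and side of the threshold, 4 crossed it in the same direction (*Pla2g3* and *Cyp2j10*) and 16 changed sign, none of them past the test in either setting. Under limma-voom *Alox5ap* was -0.0178 and *Aloxe3* -0.00897. With each rat left out, *Ptgs1* ranged from -0.126 to 0.0185 (positive without CIE 4, Control 7 or Control 8), *Ptgds* from -0.291 to 0.0411 (positive without CIE 3, CIE 4 or Control 8), *Ltc4s* from -0.191 to 0.0604 (positive without Control 8) and *Aloxe3* from -0.0234 to 0.285 (negative without CIE 6 or Control 10). Without the 4 rats, *Ptgs1* was 0.097, *Ptgs2* -0.277, *Ptgds* 0.168, *Gpx4* 0.0304 and *Ptges3* 0.00424. *Cyp4a8* and *Pla2g3* had no value under the filter of at least 10 counts in every rat.

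No paired analysis was possible because the CIE and Control rats share no numbers. Low counts limit *Ptges*, *Alox12* and *Cyp4a8*, and Control 11 had the lowest depth. Without measured proteins or lipids, the values describe transcripts alone.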
